A study of Mus musculus with 29 samples.

Results

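The atrial muscle genes *Nppa*, *Sln*, *Myl4* and *Myl7* were followed in left ventricle (LV) tissue of 29 mice, 1 Illumina MouseWG-6 array per mouse. The members were all probes of these 4 symbols. Each symbol had 1 probe, and all 4 genes were among the 8189 named genes with a detected probe. Levels are given as log2 bead intensity, which rises with the amount of the transcript, after background correction and quantile normalization. A probe counts as detected in an array when its detection p, set by the negative control beads, is under 0.01.

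The Young mice were 10 weeks old, the Middle Age (MA) mice 12 months and the Old mice 21 months. There were 5 Young *Rage-/-* and 5 Young WT mice, 4 MA *Rage-/-* and 4 MA WT mice, and 6 Old *Rage-/-* and 5 Old WT mice. All were female and labelled C57BL/6N, and all were perfused with saline before the heart was removed and frozen. RAGE, a cell surface receptor for glycated proteins, is missing from *Rage-/-* mice in its membrane-bound and its soluble form. *Ager*, the gene that encodes it, had no named probe, so its loss was not read from its own transcript. The Old WT mice keep the numbers 2 to 6 of their labels.

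Atrial and ventricular muscle cells carry different forms of the same contractile proteins. *Myl4* encodes the atrial essential myosin light chain and *Myl7* the atrial regulatory light chain, where ventricular muscle has *Myl3* and *Myl2*. *Sln* encodes sarcolipin, a small membrane protein of atrial muscle that inhibits the calcium pump SERCA. *Nppa* encodes the precursor of atrial natriuretic peptide, a hormone stored in atrial granules that lowers blood volume and pressure. *Nppa* is also made by ventricular muscle before birth and again under load, so it is the least restricted of the 4 in the adult heart.

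All 4 genes were read clearly in most ventricles, and 6 ventricles stood apart. *Nppa* and *Myl4* were detected in all 29 arrays, while *Sln* and *Myl7* were detected in 23 and missed together in the same 6. *Myl2* and *Myl3*, the ventricular light chains, were detected in every array, at 13.79 or more and 13.72 or more, as the tissue label has it. Detected probes numbered 9125 to 15087 per array, with 10338 to 13269 in the 6 ventricles without *Sln* and *Myl7*. In whole tissue, fewer cells of a type and less RNA per cell cannot be told apart. No value in the files records how each ventricle was cut, and the part of dissection in any of the results was not tested.

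RefSeq (GRCm38.p6) gave the start region of 3 of the 4 genes, 250 bases before to 50 after the annotated start; *Sln* was not among them. The regions are shown because the genes moved together from mouse to mouse. Capitals mark the matches to 6 motifs on either strand: the T-box site AGGTGTGA, the GATA site TGATAA, the NKX2-5 site CAAGTG, the TATA box TATAAA, the CArG box and the MEF2 site. They are given 5′ to 3′ on the strand of the gene, for *Nppa* at chr4:148000472-148000771 (plus strand), *Myl7* at chr11:5898733-5899032 (minus strand) and *Myl4* at chr11:104550413-104550712 (plus strand).
Nppa: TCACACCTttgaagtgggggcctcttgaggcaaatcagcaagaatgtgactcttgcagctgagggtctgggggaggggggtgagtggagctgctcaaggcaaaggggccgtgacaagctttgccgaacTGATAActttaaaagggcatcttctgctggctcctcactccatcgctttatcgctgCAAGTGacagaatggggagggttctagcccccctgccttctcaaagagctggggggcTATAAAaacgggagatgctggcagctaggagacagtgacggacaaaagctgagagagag
Myl7: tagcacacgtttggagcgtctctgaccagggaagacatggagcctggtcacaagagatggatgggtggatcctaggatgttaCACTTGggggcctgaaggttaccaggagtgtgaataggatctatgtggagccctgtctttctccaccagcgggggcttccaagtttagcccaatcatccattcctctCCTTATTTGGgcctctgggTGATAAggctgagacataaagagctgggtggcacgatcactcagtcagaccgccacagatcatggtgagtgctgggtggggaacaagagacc
Myl4: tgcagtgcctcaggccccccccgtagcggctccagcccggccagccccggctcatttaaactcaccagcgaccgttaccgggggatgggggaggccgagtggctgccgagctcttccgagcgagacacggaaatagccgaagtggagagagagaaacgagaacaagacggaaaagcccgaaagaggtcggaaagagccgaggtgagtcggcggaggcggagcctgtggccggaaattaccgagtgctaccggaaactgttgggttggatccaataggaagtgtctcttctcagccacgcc

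The *Nppa* region held a T-box site on the opposite strand at its far end, a GATA site 122 bases before the start, an NKX2-5 site and a TATA box. The *Myl7* region held an NKX2-5 site on the opposite strand, a CArG box and a GATA site. The *Myl4* region held a match to none of the 6, which says only that these letters are not in this window. Of 32544 start regions of the same length, 1.28% held the T-box site, 8.91% the GATA site, 13.5% the NKX2-5 site, 13.6% the TATA box, 1.64% the CArG box and 0.559% the MEF2 site. No motif was shared by all 3 regions, no 2 of the motif matches overlapped, and a match is not a measured site.

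*Sln* had the widest spread of the 4. In Young mice the log2 levels were 9.11, 11.24, 10.72, 9.09 and 4.48 in *Rage-/-* ventricles, against 4.40, 7.67, 9.96, 9.05 and 11.16 in WT ventricles. In MA mice they were 4.37, 4.51, 9.60 and 9.19 in *Rage-/-* ventricles, against 9.63, 8.44, 9.85 and 4.58 in WT ventricles. In Old mice they were 9.32, 10.15, 11.87, 4.36, 8.65 and 8.59 in *Rage-/-* ventricles, against 8.60, 8.53, 8.54, 10.07 and 8.04 in WT ventricles. The genotypes overlapped at every age. The values between 4.36 and 4.58 are the 6 arrays in which *Sln* was not detected: Young *Rage-/-* 5, Young WT 1, MA *Rage-/-* 1, MA *Rage-/-* 2, MA WT 4 and Old *Rage-/-* 4. Old WT was the only group with *Sln* detected in every mouse. Old *Rage-/-* 3, the highest ventricle, had at least 60.4 to 91.5 times the *Sln* signal of those 6, set against the faintest detected probe of each array. The next highest, Young *Rage-/-* 2, had at least 39.2 to 59.3 times. Among the 23 ventricles with *Sln* detected the range was 18.3-fold.

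*Myl4* was detected in every mouse, so its whole range is measured. In Young mice it stood at 11.82, 13.71, 13.43, 11.90 and 8.44 in *Rage-/-* ventricles, against 7.06, 11.15, 12.57, 11.83 and 13.08 in WT ventricles. In MA mice it stood at 8.38, 8.67, 12.44 and 11.95 in *Rage-/-* ventricles, against 12.27, 11.49, 12.49 and 8.31 in WT ventricles. In Old mice it stood at 12.15, 12.36, 14.00, 8.83, 10.79 and 10.88 in *Rage-/-* ventricles, against 11.75, 10.86, 10.79, 11.92 and 10.57 in WT ventricles. The range over all mice was 6.93 on the log2 scale, or 122-fold. Without Young WT 1, the lowest ventricle, it was 5.68, or 51.4-fold, and in the authors' values 5.74, or 53.3-fold. The 6 lowest ventricles, at 7.06 to 8.83, were the 6 without detected *Sln*, and the other 23 began at 10.57. *Myl4* thus separated the same 6 mice with no overlap, on a probe that was detected throughout.

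*Myl7* was low in the same 6 ventricles as *Sln* and *Myl4*. In Young mice its level was 8.35, 10.46, 9.84, 8.08 and 5.20 in *Rage-/-* ventricles, against 4.52, 7.42, 9.13, 8.47 and 9.62 in WT ventricles. In MA mice its level was 4.47, 4.60, 8.94 and 8.84 in *Rage-/-* ventricles, against 9.07, 8.21, 8.61 and 4.65 in WT ventricles. In Old mice its level was 8.48, 7.87, 10.26, 4.61, 8.80 and 7.90 in *Rage-/-* ventricles, against 8.19, 9.03, 9.10, 10.25 and 8.99 in WT ventricles. The undetected ventricles lay at 4.47 to 5.20 and the detected ones at 7.42 to 10.46. The highest ventricle for *Myl7* was Young *Rage-/-* 2, at least 22.8 to 34.6 times the 6 in which the probe was not detected.

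*Nppa* varied least and was bright everywhere. In Young mice the values were 12.97, 13.97, 14.08, 13.21 and 12.37 in *Rage-/-* ventricles, against 12.47, 13.03, 13.16, 12.71 and 13.99 in WT ventricles. In MA mice the values were 12.62, 12.60, 13.38 and 13.54 in *Rage-/-* ventricles, against 13.25, 13.14, 13.51 and 12.57 in WT ventricles. In Old mice the values were 13.30, 13.61, 14.44, 13.31, 13.10 and 13.43 in *Rage-/-* ventricles, against 12.87, 13.02, 13.24, 14.82 and 12.93 in WT ventricles. The range over all mice was 2.45 on the log2 scale, or 5.48-fold. In Old WT 5, the highest, *Nppa* was at place 7 among all probes, with a bead intensity of 28181 against a highest of 30183 on that array. Whether signal near the top of the scale narrowed the range of *Nppa* was not tested. In the 6 ventricles without detected *Sln* and *Myl7*, *Nppa* lay at 12.37 to 13.31, against 12.71 to 14.82 in the other 23. In 5 of the 6 it was below every one of the 23. The exception was Old *Rage-/-* 4, whose *Nppa* of 13.31 was inside the range of the 23.

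**Figure D1:**
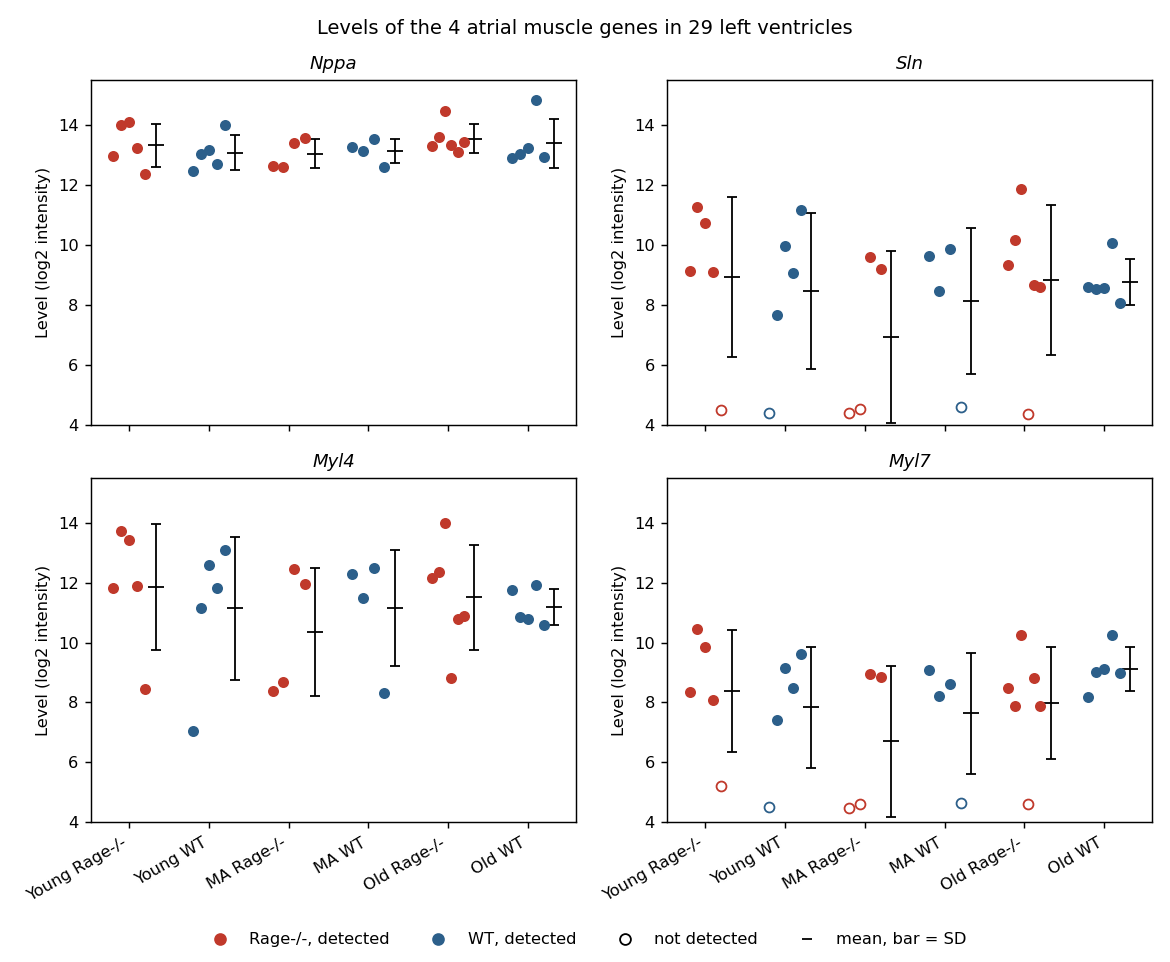
Log2 intensity of each atrial gene (y axis) by group (x axis), 1 point per mouse, with the group mean and SD beside the points; open points mark arrays in which the probe was not detected. In the *Sln*, *Myl4* and *Myl7* panels 6 mice of 5 groups lie far below the rest, while *Nppa* keeps between 12.37 and 14.82.

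The 6 low ventricles were spread over genotypes, ages and slides. They comprised 4 *Rage-/-* and 2 WT mice. The arrays lay on 6 BeadChips, numbered here in the order of their slide numbers. The low ventricles numbered 2 on BeadChip 1, 1 on BeadChip 2, 1 on BeadChip 3 and 2 on BeadChip 4, each beside 3 to 5 ventricles with all 4 genes detected. BeadChips 5 and 6 held 6 arrays, all from Old mice, and no low ventricle. Detection was higher on these slides, at 13704 to 15087 probes per array against 9125 to 13676 on BeadChips 1 to 4. All Old WT mice except Old WT 2 lay on BeadChips 5 and 6. Whether slide bears on the detection of *Sln* in every Old WT mouse was not tested.

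Set against all 13277 detected probes, 3 of the 4 genes were among the most variable between mice of the same group. The within-group SD, pooled over the 6 groups, was 2.39 for *Sln*, the largest of all, 1.91 for *Myl7* (place 3) and 1.89 for *Myl4* (place 4). Place 2 went to *Mybphl*, with 1.92, and *Pdpk1*, at place 5, had 1.39. *Mybphl* encodes a myosin binding protein of atrial muscle and the conduction system. The SD over all probes had a median of 0.39 and a 99th percentile of 0.90, and 57 probes exceeded 1. *Nppa* had an SD of 0.60, and 10% of the probes had a larger one.

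**Figure D2:**
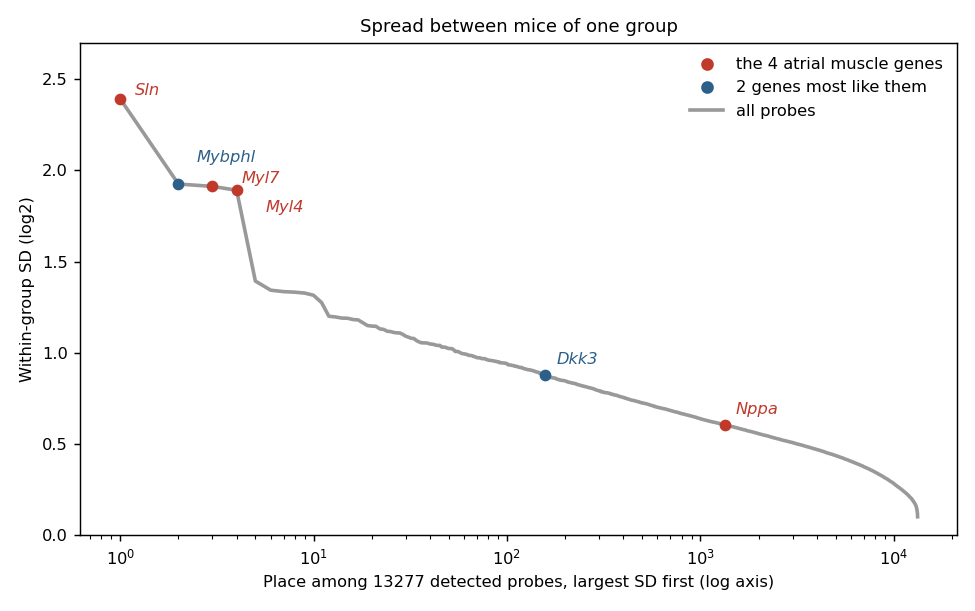
Within-group SD on the log2 scale (y axis) of all 13277 detected probes in order of size (x axis, log scale), with the 4 atrial genes and the 2 genes most like them marked. *Sln*, *Mybphl*, *Myl7* and *Myl4* take the first 4 places, above a step down to 1.39, and *Nppa* lies at 0.60.

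The undetected ventricles made up much of this spread. Over the 23 ventricles with all 4 genes detected, the SD was 1.12 for *Sln* (place 35), 0.91 for *Myl4* (place 199), 0.88 for *Myl7* (place 255) and 0.58 for *Nppa* (place 2060). Normalization moved it too: in the authors' values, which compress low signals, the SD was 1.62 for *Myl4* (place 1), 1.08 for *Sln* (place 2), 0.71 for *Myl7* (place 24) and 0.64 for *Nppa* (place 30). Over all 29 arrays, BeadChip held 3.21% of the within-group variance of *Sln*, 5.51% for *Myl4*, 4.04% for *Myl7* and 14.3% for *Nppa*. Each MA group lay on a single slide, so no variance within the MA groups could be credited to slide. These shares include the low ventricles, which made up much of the variance.

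The genes rose and fell together from ventricle to ventricle. Since the 6 low ventricles formed a separate set, the relations were computed over the other 23, for all 6 pairs, with two-sided permutation p values adjusted over the pairs. *Sln* and *Myl4* were the closest pair, with Pearson's r = 0.931 (permutation p = 1e-05, the smallest that 100000 resamples give; adjusted p = 6e-05) and Spearman's rho = 0.925 (permutation p = 1e-05; adjusted p = 6e-05). *Nppa* and *Sln* had r = 0.771 (permutation p = 5e-05; adjusted p = 0.00015) and rho = 0.781 (permutation p = 2e-05; adjusted p = 6e-05). *Sln* and *Myl7* had r = 0.726 (permutation p = 0.00012; adjusted p = 0.00018) and rho = 0.579 (permutation p = 0.00472; adjusted p = 0.00708).

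The other 3 pairs had a lower Pearson's r over these 23 ventricles. *Nppa* and *Myl7* had r = 0.718 (permutation p = 0.00012; adjusted p = 0.00018) and rho = 0.505 (permutation p = 0.0157; adjusted p = 0.0189). *Nppa* and *Myl4* had r = 0.630 (permutation p = 0.00142; adjusted p = 0.0017) and rho = 0.696 (permutation p = 0.00042; adjusted p = 0.00084). *Myl4* and *Myl7*, both light chains of atrial myosin, had the lowest r over the 23, 0.583 (permutation p = 0.0039; adjusted p = 0.0039), with rho = 0.477 (permutation p = 0.0223; adjusted p = 0.0223). Without the 2 ventricles farthest from the median of the first gene of a pair, r was 0.811 for *Nppa* and *Sln*, 0.723 for *Nppa* and *Myl4*, 0.568 for *Nppa* and *Myl7*, 0.889 for *Sln* and *Myl4*, and 0.580 for *Sln* and *Myl7*. For *Myl4* and *Myl7* it was 0.354 (permutation p = 0.116), the ventricles left out being Old *Rage-/-* 3 and Young *Rage-/-* 2. Without any single mouse this r stayed at 0.499 to 0.637, and with each gene centred on its BeadChip it was 0.905 (n = 22). Over all 29 ventricles, as first designed, r was 0.973 for *Sln* and *Myl4*, 0.954 for *Sln* and *Myl7*, and 0.908 for *Myl4* and *Myl7*. It was then 0.751 for *Nppa* and *Sln*, 0.729 for *Nppa* and *Myl4*, and lowest, 0.717, for *Nppa* and *Myl7*. The order of the pairs thus depends on whether the low ventricles are included.

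The difference between the light chains was not the same on all slides. On BeadChips 5 and 6 *Myl7* minus *Myl4* was -2.98 to -1.58 on the log2 scale (n = 6), against -4.49 to -3.10 on BeadChips 1 to 4 (n = 17), with no overlap. *Myl4* minus *Nppa* also did not overlap, at -2.90 to -2.16 on BeadChips 5 and 6 against -1.87 to -0.26 on BeadChips 1 to 4. *Sln* minus *Nppa* did overlap, at -4.88 to -4.45 against -5.36 to -2.58. So did *Myl4* minus *Sln*, at 1.85 to 2.53 against 1.92 to 3.49, and *Myl7* minus *Nppa*, at -5.54 to -3.94 against -5.74 to -3.51. *Myl7* minus *Sln* overlapped in part, at -0.70 to 0.94 (median 0.34) against -2.28 to -0.23 (median -0.78). All 6 mice on BeadChips 5 and 6 were Old. Among Old mice alone, *Myl7* minus *Myl4* was -2.98 to -1.58 on BeadChips 5 and 6 (n = 6), against -4.49 to -3.57 on BeadChips 1 to 4 (n = 4). The 4 were Old *Rage-/-* 1, 2 and 3 and Old WT 2, and the 6 were Old *Rage-/-* 5 and 6 and Old WT 3 to 6. Genotype was thus unevenly split between the slides, and the cause of the difference was not tested. No BeadChip held 6 ventricles with all 4 genes detected, so no r was computed within a single slide. With each gene centred on its BeadChip (n = 22, BeadChip 6 having 1 array), r was 0.977 for *Sln* and *Myl4*, 0.905 for *Myl4* and *Myl7*, 0.889 for *Sln* and *Myl7*, 0.841 for *Nppa* and *Myl4*, 0.825 for *Nppa* and *Sln*, and 0.757 for *Nppa* and *Myl7*. All 6 stayed past the threshold (highest permutation p = 0.00053; adjusted p = 0.00053).

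The relations held with the group means removed. After each gene was centred on its group mean, r over the 23 ventricles lay between 0.720 for *Nppa* and *Myl4* and 0.943 for *Sln* and *Myl4*, and the highest adjusted permutation p was 0.00273. The slopes were unequal: over the 23 ventricles the SD of *Sln* was 2.04 times that of *Nppa*, that of *Myl4* was 1.80 times and that of *Myl7* was 1.54 times.

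**Figure D3:**
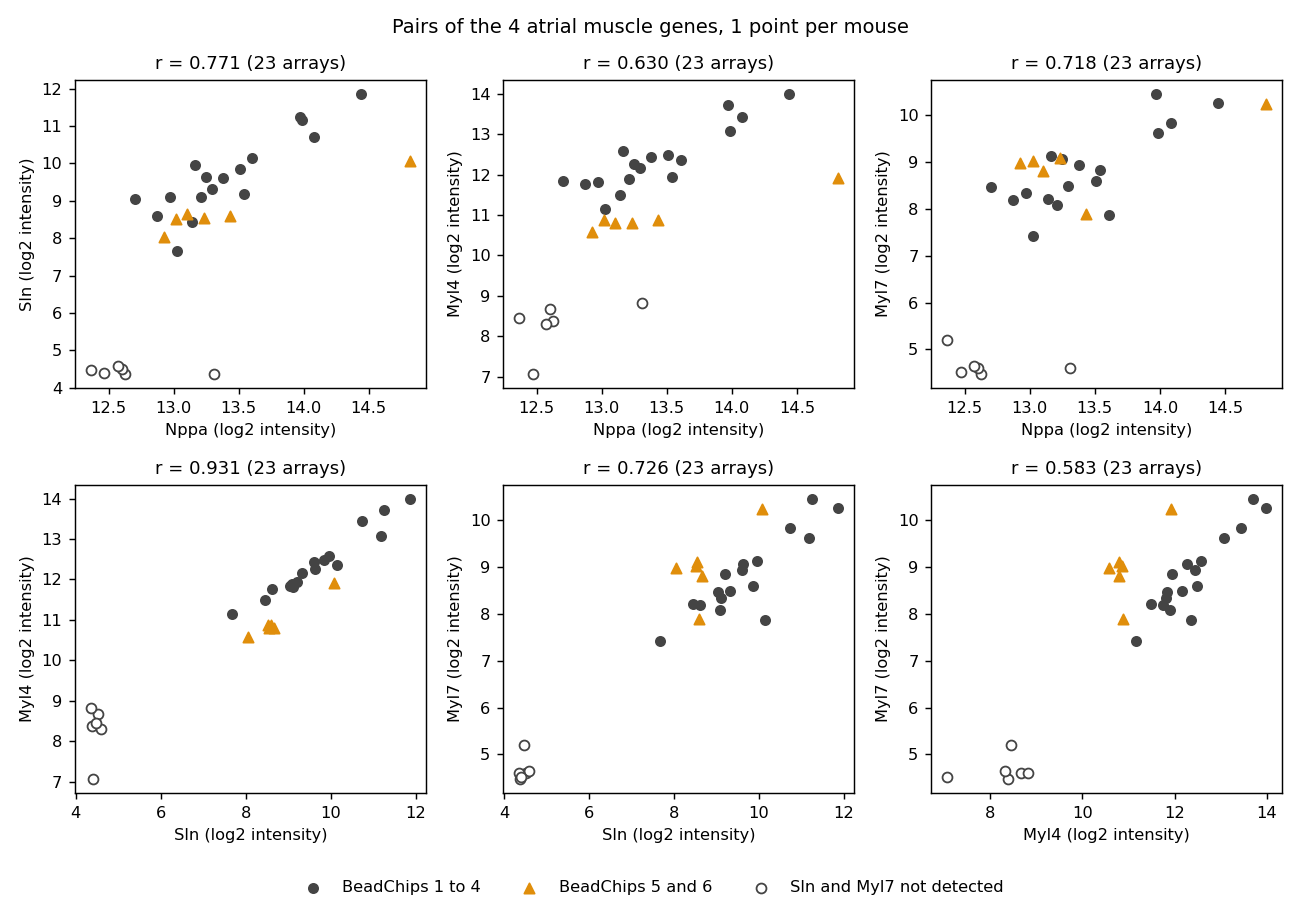
Log2 intensity of each pair of atrial genes (x and y axes), 1 point per mouse; triangles mark BeadChips 5 and 6 and open points the 6 ventricles without detected *Sln* and *Myl7*. Pearson's r above each panel is over the 23 filled points, from 0.583 to 0.931. The triangles lie apart from the circles in the panel of *Nppa* and *Myl4* and in that of *Myl4* and *Myl7*.

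Few other genes shared this pattern. For each of 8185 other genes, r was taken with the mean of the 4 atrial genes over the 29 ventricles, after the group means were removed; the 6 low ventricles weigh heavily in it, and the values are descriptions. The median r was -0.03, and 2 genes reached 0.7. *Mybphl* had r = 0.971, or 0.934 over the 23 ventricles, and was detected in 1 of the 6 low ventricles. *Dkk3*, which encodes a secreted protein of the Dickkopf family, had r = 0.904, or 0.850 over the 23. *Dkk3* was detected in all mice, at 6.13 to 7.49 in the low ventricles and 7.41 to 9.77 in the others.

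After these 2 genes the likeness fell off. The next 8 were *Rps6ka3*, *Idua*, *Cacna1h*, *Gja5*, *Gabarapl1*, *Kcnj3*, *Rassf2* and *Mfap4*, with r from 0.664 down to 0.585. Over the 23 ventricles *Mfap4* had 0.615 and *Cacna1h*, a T-type calcium channel subunit, had 0.514, while *Idua* had -0.03. The 5 genes at the other end were *Ndufa1*, *Paip2b*, *Hip1r*, *Cxcl14* and *Dennd2c*, with r from -0.684 to -0.621 over the 29 ventricles and from -0.299 to 0.00612 over the 23. For *Ndufa1*, a subunit of respiratory complex I, r was -0.684 and -0.299.

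Other genes known from atrial muscle followed in part. Of 19 listed, 9 had a detected probe; their median r was 0.507, and 5 had r over 0.5, against 0.367% of all other genes. Besides *Mybphl* and *Dkk3* these were *Gja5* (connexin 40, a gap junction protein of atria and conduction fibres) with 0.618, *Kcnj3* (a potassium channel subunit of the acetylcholine response) with 0.607 and *Stard10* with 0.507. Over the 23 ventricles the median of the list was 0.102, and only *Mybphl* and *Dkk3* passed 0.5. *Gja5* then had 0.376, *Kcnj3* 0.102 and *Stard10* 0.476. The list was chosen with earlier results of these data known, so its counts are descriptions and not a test. *Kcnj3* was near the detection limit, being detected in 17 of the 29 ventricles and in 1 of the 6 low ones. *Pam*, which encodes a peptide-amidating enzyme of atrial granules, had 0.318 over the 29 ventricles and -0.435 over the 23. *Hey1* had 0.155 and -0.0312, *Kcna5* -0.00713 and 0.0437, and *Kcnj5* -0.289 and -0.298. *Mybphl* and *Dkk3* are atrial genes in this list and also 2 of the leading genes above, so they count once.

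No measured gene of the other lists had r over 0.5 over the 29 ventricles, and 1 did over the 23: *Ccn2*, which encodes a matrix protein of the stress list, with 0.218 and 0.545. Of 8 ventricular genes 6 were measured, with a median r of -0.00262 and a highest of 0.290 (*Myl3*); *Irx4*, a transcription factor of ventricular muscle, had -0.434, or -0.111 over the 23. Of 8 conduction system genes 3 were measured, up to 0.320, and the defining markers *Hcn4*, *Shox2*, *Isl1* and *Tbx18* had no detected probe. For skeletal muscle 3 of 8 were measured (highest r 0.181), for vascular smooth muscle 3 of 5 (0.240), for mesothelium 1 of 5 (0.267) and for blood 3 of 4 (-0.187). None of 5 fat genes and none of 4 lung genes had a detected probe.

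**Figure D4:**
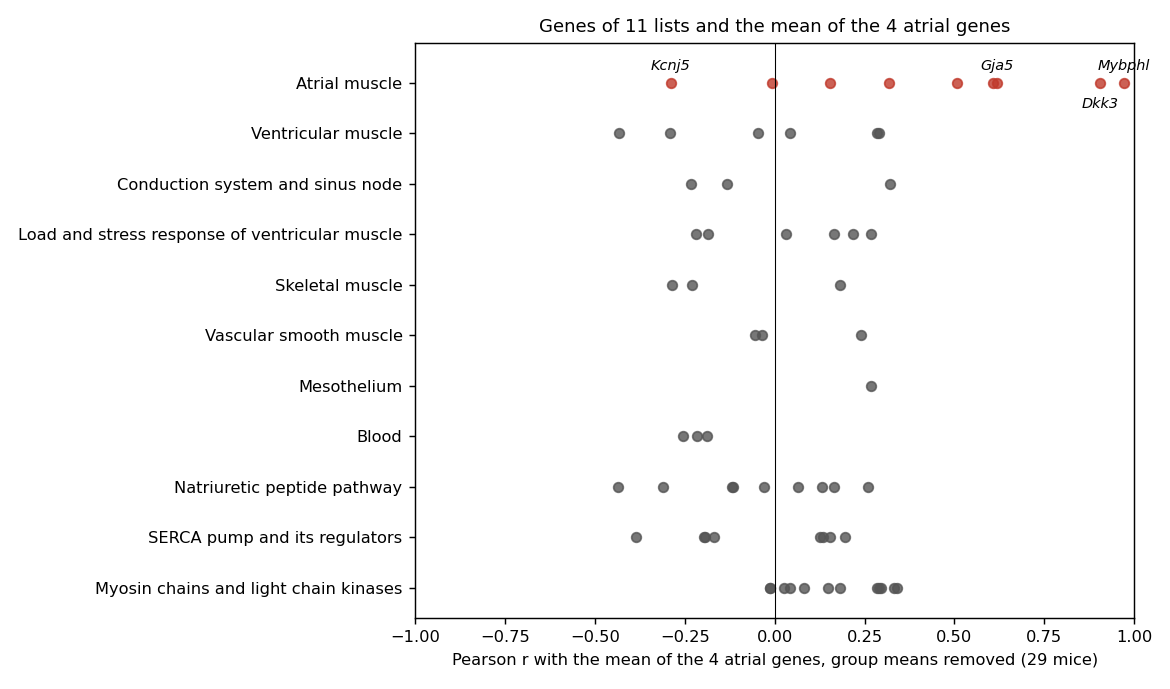
Pearson's r of each measured gene of 11 lists (rows) with the mean of the 4 atrial genes, group means removed, over 29 mice (x axis), 1 point per gene. The atrial list reaches 0.971 with *Mybphl*, and no gene of the other lists passes 0.5 over these 29 mice.

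No difference of the 4 genes between genotypes or ages passed the test. A limma model with the 6 groups and 5 surrogate variables, which stand for unwanted variation, was fitted to all 13277 probes. At adjusted p under 0.05, 0 of the 4 genes were called in Young *Rage-/-* minus WT (0.678% of all probes called), 0 in MA *Rage-/-* minus WT (1.9%) and 0 in Old *Rage-/-* minus WT (0.0527%). Across ages, averaged over the genotypes, 0 were called in MA minus Young (2.17%), 0 in Old minus Young (3.75%) and 0 in Old minus MA (0.00753%). None of the 24 unadjusted limma p values was under 0.05. The age comparisons share mice with each other.

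Neighbouring group means stood close together relative to the SDs of their own groups. *Sln* averaged 8.93 ± 2.66 in Young *Rage-/-* and 8.45 ± 2.60 in Young WT ventricles (SD, n = 5 each). It averaged 6.92 ± 2.87 in MA *Rage-/-* and 8.12 ± 2.44 in MA WT ventricles (n = 4 each), and 8.82 ± 2.50 in Old *Rage-/-* (n = 6) and 8.76 ± 0.77 in Old WT ventricles (n = 5). Ordered by mean, *Sln* ran from Young *Rage-/-* at 8.93 to MA *Rage-/-* at 6.92, and its neighbours differed by at most 1.20, between MA WT and MA *Rage-/-*, less than the SD of either. The low MA *Rage-/-* mean comes from 2 of 4 ventricles without detected *Sln*. For *Nppa* the means were 13.32 ± 0.72 in Young *Rage-/-* and 13.07 ± 0.58 in Young WT, 13.04 ± 0.49 in MA *Rage-/-* and 13.12 ± 0.39 in MA WT, and 13.53 ± 0.48 in Old *Rage-/-* and 13.38 ± 0.82 in Old WT ventricles. Ordered by mean, *Nppa* ran from Old *Rage-/-* at 13.53 to MA *Rage-/-* at 13.04, and neighbours differed by at most 0.20, less than the smallest SD of a group, 0.39. *Myl4* means ran from 11.86 in Young *Rage-/-* to 10.36 in MA *Rage-/-*, and *Myl7* means from 9.11 in Old WT to 6.71 in MA *Rage-/-*. For *Myl4* the widest gap between neighbours was 0.78, between Young WT (SD 2.39) and MA *Rage-/-* (SD 2.13). For *Myl7* it was 0.92, between MA WT (SD 2.02) and MA *Rage-/-* (SD 2.52). The smallest group SDs, 0.61 for *Myl4* and 0.74 for *Myl7*, both in Old WT, were below these gaps.

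The intervals were wide for the 3 muscle protein genes and narrower for *Nppa*. *Nppa* in Young *Rage-/-* minus WT was -0.04 (95% interval -0.82 to 0.74, limma adjusted p = 0.985), in MA 0.09 (-0.76 to 0.94, adjusted p = 0.941) and in Old 0.01 (-0.81 to 0.82, adjusted p = 0.999). *Sln* was -0.95 in Young (-3.67 to 1.76, adjusted p = 0.887), -0.58 in MA (-3.55 to 2.38, adjusted p = 0.878) and -0.84 in Old mice (-3.68 to 2.0, adjusted p = 0.992). The *Nppa* intervals of this fit stayed within 1 log2 unit, while for *Sln* differences of over 3 log2 units lie inside the intervals. All MA *Rage-/-* arrays lay on BeadChip 4 and all MA WT arrays on BeadChip 2, so no slide held both, and slide and genotype cannot be told apart in MA. With BeadChip as a fixed block in place of the surrogate variables, *Nppa* in MA *Rage-/-* minus WT was 1.56 (SE 1.13, adjusted p = 0.588). The largest estimate of the 24 relative to its SE was *Sln* in MA minus Young, -1.56 (SE 1.06, adjusted p = 0.506).

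The surrogate variables took up 36.0% of the within-group variance of *Sln*, 41.0% for *Myl4*, 34.0% for *Myl7* and 19.7% for *Nppa*. What share the same number of unrelated variables would take up was not computed. These values alone therefore do not show that atrial signal was held in the surrogate variables. Without them *Sln* in Young *Rage-/-* minus WT was 0.48 (SE 1.39, adjusted p = 1), the opposite sign, and *Sln* in Old minus Young was 0.10 (SE 0.96, adjusted p = 0.945) in place of -1.30 (SE 1.21, adjusted p = 0.604).

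**Figure D5:**
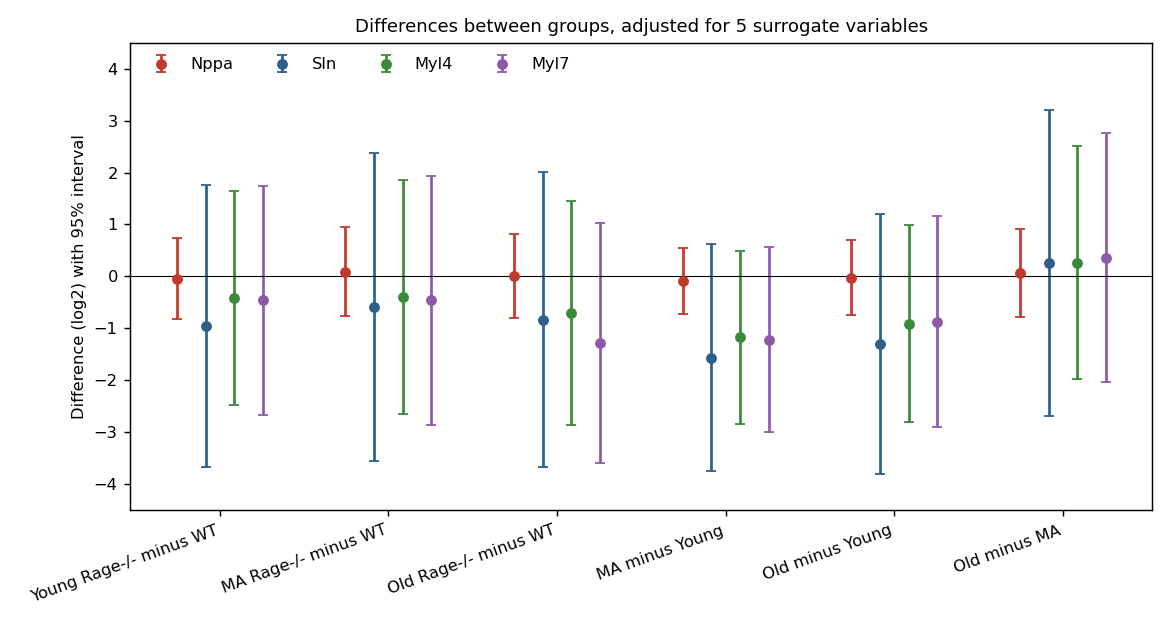
Differences of the 4 atrial genes on the log2 scale (y axis) in 6 comparisons (x axis), from the limma fit with 5 surrogate variables; bars are 95% intervals. All 24 intervals include 0, and those of *Nppa* are the narrowest.

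*Nppb*, the ventricular partner of *Nppa* that encodes brain natriuretic peptide, rose with age. It averaged 10.79 ± 0.20 in Young *Rage-/-* and 11.40 ± 0.36 in Young WT, 13.00 ± 0.14 in MA *Rage-/-* and 11.86 ± 0.90 in MA WT, and 13.09 ± 0.45 in Old *Rage-/-* and 12.49 ± 0.54 in Old WT ventricles. All Old ventricles were above all Young ones. MA *Rage-/-* ventricles, at 12.84 to 13.15, lay above Young *Rage-/-* ones, at 10.49 to 11.01. MA WT ventricles, at 10.64 to 12.73, overlapped Young WT ones, at 11.02 to 11.81. Averaged over the genotypes, *Nppb* rose by 1.48 in MA minus Young (SE 0.24, limma adjusted p = 0.00179). In Old minus Young it rose by 1.81 (SE 0.27, limma adjusted p = 0.000452), and both were set against the same Young mice. With BeadChip as a fixed block in place of the surrogate variables the differences were 1.18 (adjusted p = 0.458) and 1.60 (adjusted p = 0.135). *Nppb* had r = 0.165 with the mean of the 4 atrial genes, and lay at 10.64 to 13.49 in the 6 low ventricles, against 10.49 to 13.66 in the other 23. Whether the age changes of *Nppb* and *Nppa* differ was not tested.

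The pathways around the 4 genes are short lists, and whether they held more calls than other genes was not tested. Over all probes, 1.9% were called in MA *Rage-/-* minus WT, 2.17% in MA minus Young and 3.75% in Old minus Young. The counts here and in the following paragraphs stand beside these shares. Of 9 measured natriuretic peptide genes, which include *Nppb*, 1 was called higher in MA *Rage-/-* minus WT, 1 in MA minus Young and 1 in Old minus Young, with none lower. The call in MA *Rage-/-* was *Npr1*, the receptor of both peptides, at limma adjusted p = 0.0291. *Npr1* was detected in 3 of 4 MA *Rage-/-* and 0 of 4 MA WT ventricles, so the size of the difference is not measured. It was called in none of 10 alternative fits and in 20 of 29 fits with 1 mouse left out. The processing proteases *Corin* and *Furin* and the clearance receptor *Npr3* were measured and not called. Their r with the atrial mean changed sign with the arrays taken, at -0.116 over the 29 ventricles and 0.397 over the 23 for *Corin*, -0.310 and 0.134 for *Furin*, and -0.0296 and 0.445 for *Npr3*.

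For *Sln* the neighbours are the calcium pump and its regulators, of which 8 of 13 were measured. In MA minus Young 2 were called higher, *Slc8a1*, the sodium-calcium exchanger (0.40, SE 0.09, adjusted p = 0.0188), and *Atp2a3*, a SERCA pump of non-muscle cells (0.50, SE 0.11, adjusted p = 0.0184). In Old minus Young *Slc8a1* was called again (0.53, SE 0.10, adjusted p = 0.00525). *Atp2a2*, the cardiac pump that sarcolipin acts on, and *Pln*, which encodes its ventricular inhibitor phospholamban, were not called in any comparison. *Pln* had r = -0.385 with the atrial mean over the 29 ventricles and 0.0541 over the 23.

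For *Myl4* and *Myl7* the neighbours are other myosin chains and their kinases, of which 12 of 13 were measured. In Old minus Young *Myl6* (0.46, SE 0.11, adjusted p = 0.0166) and *Myl1* (0.63, SE 0.17, adjusted p = 0.0452) were higher and *Mylk3*, the cardiac light chain kinase, was lower (-0.81, SE 0.15, adjusted p = 0.0033). No other member of this list was called in any of the 6 comparisons. The highest r of the list with the atrial mean was 0.339, for *Mylk*, which had 0.165 over the 23 ventricles; *Myl1* had 0.181 and 0.479. The ventricular stress list had 6 of 7 genes measured and, beside *Nppb*, *Ankrd1* was called higher in MA *Rage-/-* minus WT (0.82, SE 0.17, adjusted p = 0.018), where the genotypes lay on different slides, and *Xirp2* in Old minus Young (0.47, SE 0.12, adjusted p = 0.0328). Of 3 measured skeletal muscle genes, *Pvalb* (parvalbumin) was called higher in MA minus Young and *Pvalb* and *Myl1* in Old minus Young. Of 3 measured blood genes *Alas2*, an enzyme of haem synthesis in red cells, was called higher in MA minus Young (1.74, SE 0.43, adjusted p = 0.0358). With 1 mouse left out at a time, *Nppb*, *Atp2a3*, *Myl6*, *Mylk3* and *Slc8a1* in Old minus Young were called in all 29 fits, *Ankrd1* in 26, *Myl1* in 21, *Slc8a1* in MA minus Young in 20 and *Xirp2* in 14. *Pvalb* was called in 15 of 29 in MA minus Young and in 27 in Old minus Young, and *Alas2* in 27. Of the 11 other alternatives, *Nppb* was called in 10 in each of its comparisons, *Slc8a1* in 9 in Old minus Young and 5 in MA minus Young, *Myl6* and *Mylk3* in 7, *Atp2a3*, *Ankrd1* and *Xirp2* in 6, *Alas2* in 5 and *Myl1* in 4. In 1 alternative *Alas2* had the opposite sign. *Pvalb* was called in 2 of 10 in MA minus Young and in 4 of 10 in Old minus Young. None of the 9 measured atrial and none of the 6 measured ventricular genes was called in any comparison, nor any conduction, smooth muscle or mesothelium gene.

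Most other probes kept their call when the atrial level of each ventricle was added to the fit. That fit already held the 5 surrogate variables, which took up 19.7% to 41.0% of the within-group variance of the 4 genes. The counts therefore cannot show how far the atrial level bears on the calls. With the mean of the 4 genes as a covariate, 79 of the 90 probes called in Young *Rage-/-* minus WT, 239 of 252 in MA and 4 of 7 in Old were called again, of 85, 273 and 4 called in all. Across ages 241 of 288 were called again in MA minus Young, 462 of 498 in Old minus Young and 1 of 1 in Old minus MA, of 323, 581 and 1 in all.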

How the data were processed

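Deposited per-probe bead intensities, exported by the authors with GenomeStudio 2011.1 and not background-corrected, were the starting point. Beside each deposited intensity stands a fraction, the complement of its detection p. Log2 values normalized by the authors (variance stabilization and robust spline normalization with lumi in R 4.0.2) served as an alternative. Probe names came from the platform's annotation, with symbols updated through gene identifiers. Of 45281 probes, 13277 reached a detection p below 0.01 on 25% of arrays or more; 11504 name 1 gene, 6 several and 1767 none.

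Intensities were corrected and normalized with neqc (offset 16) of limma 3.58.1 in R 4.3.3. The model held the 6 groups and 5 surrogate variables. These started as singular vectors of the residuals and were retaken over 5 rounds from the expression values. In each round probes were weighted down where they followed the groups. The weighted values still held group differences, so the surrogate variables can carry some of them. P values were adjusted by Benjamini-Hochberg over the 13277 probes and called under 0.05. For genes with more than 1 probe the brightest was used. Scripts were tested on simulated data. The precision is limited by the number of arrays.

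The design had all 29 arrays in the correlations; these were replaced by the 23 arrays with all 4 genes detected because the arrays fell into 2 sets. Named genes are the 4 members, the measured genes of 13 lists where their list is described, and the 10 genes most and 5 least like the members. The members and lists were chosen with earlier results of these data known. Each mouse had 1 array, and the p values measure the spread between mice. Alternatives changed the values, background correction, scaling, filter or surrogate variables, added a replicate block or the atrial mean, or left out BeadChips 5 and 6 or each mouse, 1 choice at a time. No surrogate variables entered the fits with a BeadChip block, within BeadChips or on the compared groups only.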

Additional observations from a re-analysis of the deposited data

Results flagged for a closer look

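In 24 sets of values, 4 genes in 6 groups, the highest or lowest mouse was compared with the rest of its group by Dixon's ratio, the gap to the nearest mouse over the range of the group, and 2 passed the 95% critical value; chance passes about 1 in 20. Both concern Old WT 5. Its *Nppa* of 14.82 against 12.87 to 13.24 in the other 4 Old WT mice gave a ratio of 0.814. Its *Sln* of 10.07 against 8.04 to 8.60 gave a ratio of 0.724. This mouse also had the highest *Myl4* (11.92) and *Myl7* (10.25) of the Old WT group. It lay on BeadChip 5 with 2 other Old WT and 2 Old *Rage-/-* mice, of which none exceeded 13.43 for *Nppa*.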

How the results depend on the processing

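The 6 correlations kept their sign and passed the threshold in the authors' values, in log2 intensities without background correction, after median scaling, as rank correlations, centred on group or BeadChip, without the surrogate variables' part, over all 29 arrays and without BeadChips 5 and 6; the exception was *Myl4* with *Myl7* without the 2 farthest ventricles, 0.354. With each mouse left out in turn r was 0.713 to 0.862 for *Nppa* and *Sln*, 0.541 to 0.788 for *Nppa* and *Myl4*, 0.663 to 0.769 for *Nppa* and *Myl7*, 0.912 to 0.942 for *Sln* and *Myl4*, 0.671 to 0.802 for *Sln* and *Myl7* and 0.499 to 0.637 for *Myl4* and *Myl7*. No alternative called any of the 4 genes, while 20 of the 24 differences changed sign under at least 1 alternative.

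The within-group SD, with alternatives chosen after seeing the data, moved by over 1.5 times for *Sln* (1.08 in the authors' values, 1.51 without background correction, 1.12 in 23 arrays), *Myl7* (0.711, 1.10 and 0.877) and *Myl4* (0.912 in 23 arrays).

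The number of probes called over the whole array depended on the setting. In Young, MA and Old *Rage-/-* minus WT, MA minus Young, Old minus Young and Old minus MA the fit called 90, 252, 7, 288, 498 and 1. In the authors' values 15 were called in Old *Rage-/-* minus WT, 444 in MA minus Young, 971 in Old minus Young and 15 in Old minus MA. Without background correction there were 16 in Old *Rage-/-* minus WT, 451 in MA minus Young and 0 in Old minus MA. Median scaling gave 113 in MA *Rage-/-* minus WT, 11 in Old *Rage-/-* minus WT and 67 in Old minus MA. Detection in 75% of arrays gave 4 in Old *Rage-/-* minus WT. No filter gave 113 in MA minus Young, 241 in Old minus Young and 4 in Old minus MA. Without surrogate variables there were 54, 8, 100, 4503 and 5194 in Young, MA, MA minus Young, Old minus Young and Old minus MA. BeadChip as a fixed block, in place of the surrogate variables, gave 27, 2, 3, 4 and 41 in all but Old minus MA, and as a random block 54, 2, 3, 32, 1003 and 193. The compared groups alone, with no surrogate variables, gave 31, 2, 2, 91, 4233 and 5049. Within BeadChips holding both genotypes there were 14 in Young (3 *Rage-/-* and 5 WT mice) and 17 in Old (2 and 3). Without BeadChips 5 and 6 there were 39, 57, 17, 93 and 90 in all but Old minus MA. With the atrial mean as a covariate there were 4 in Old *Rage-/-* minus WT. With each mouse left out the counts were 52 to 147, 92 to 338, 3 to 8, 215 to 616, 315 to 3183 and 1 to 947. The causes were not tested.

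The replicate numbers pair no samples: of 14 pairs with the same number, 6 had a correlation of deviations over 0.1 (-0.261 to 0.477). A replicate block gave 4 calls in Old *Rage-/-* minus WT, 231 in Old minus Young and 0 in Old minus MA, and none of the 4 genes.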
